A study of Mus musculus with 25 samples.

Results

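Lgr4, Lgr5, Lgr6, Sox9, Lhx2, Tbx1, Cd34, Nfatc1, Runx1 and Edar are genes that mark or control the stem and progenitor cells of the hair follicle, and all 10 were followed by symbol through both deposited expression tables, which list 24015 genes each. The tables hold 17 RNA sequencing libraries of mouse basal cell carcinoma. Resistant and sensitive tumours, 4 libraries each, came from C57BL6 mice that were heterozygous for Ptch, carried Cre-ER under the keratin 14 promoter and had both p53 alleles floxed. All of these mice were given an inhibitor of Smo by mouth, the sensitive ones included, so no tumour library is free of the drug. The other libraries are of ASZ001, a mouse basal cell carcinoma line whose cells the labels call resistant, treated with CCG-1423, with vismodegib or with vehicle, 3 libraries each. CCG-1423 is an inhibitor of gene activation by the actin-regulated coactivators MRTF and the serum response factor SRF, and vismodegib is an inhibitor of Smo. The labels give neither dose nor time. The line is a single model, and nothing in the labels says that replicates are separate animals or cultures. The tests below therefore weigh differences against a spread between libraries that could be purely technical. A gene is said to have passed where its adjusted p was below 0.05, by limma on log2(normalized count + 1) with Benjamini-Hochberg adjustment over all genes tested.

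The hair follicle regrows in cycles from stem cells kept in the bulge and in the hair germ below it. Wnt signals start the growth phase, and R-spondins, secreted proteins that bind the receptors Lgr4, Lgr5 and Lgr6, strengthen Wnt signalling by removing the ubiquitin ligases Znrf3 and Rnf43 from the cell surface. Hedgehog signalling drives growth of the lower follicle, and basal cell carcinoma, a skin cancer caused by Hedgehog activation, takes on features of embryonic hair germ. Sox9, Lhx2, Tbx1, Nfatc1 and Runx1 are transcription factors that set up follicle stem cells, hold them at rest or start their activation. Cd34 is a surface glycoprotein used to isolate mouse bulge cells. It is also made by blood vessel and blood-forming cells. Edar is the receptor for ectodysplasin and acts in the first steps of follicle formation.

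Reads at genes numbered 17537094 to 20014426 in resistant tumours and 8111252 to 14161398 in sensitive tumours, 32024887 to 41040633 with CCG-1423, 30455530 to 35561668 with vismodegib and 32192090 to 44017757 with vehicle. Sensitive tumour 4 stood apart from its group. Across 15076 genes it correlated on average at 0.952 with the 4 resistant libraries and at 0.828 with sensitive tumours 1 to 3. It had 0 Y-linked reads, as did all 4 resistant tumours, whereas sensitive tumours 1, 2 and 3 had 2174, 1391 and 1514, so that without sensitive tumour 4 sex and drug response cannot be told apart. Tumour results are therefore given with all 8 tumours and without sensitive tumour 4. Keratinocyte markers (Krt5, Krt14, Trp63, Epcam, Cdh1, Perp) were present in tumours and cells, with 6 of 6 detected in every group. In the cells the fibroblast, leukocyte and mast cell markers were near 0. Some markers of other types were read in the line. With vehicle, endothelial markers summed to 25.6 to 25.8 reads per 1000000 reads at genes, dermal papilla to 20.2 to 21.1 and macrophage to 11.4 to 12.6.

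In the tumours, 9 of the 10 genes averaged lower in resistant than in sensitive tumours, but with all 8 libraries none passed the test. Lgr5, Tbx1, Sox9 and Nfatc1 had the widest gaps, and Edar alone averaged higher. Sensitive tumour 4 lay inside the range of the resistant tumours for 9 of 10 genes, and inside the range of sensitive tumours 1 to 3 for 1 of 10, Lgr6. Without it, Lgr5, Tbx1, Nfatc1, Sox9, Runx1 and Cd34 passed, all lower in resistant tumours.

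Lgr5 is the R-spondin receptor that marks cycling cells of the lower bulge and hair germ. Its normalized counts, which are read counts divided by the authors' size factor for each library, were 1019.5, 1205, 1656 and 2524 in resistant tumours 1 to 4, against 6362, 4725, 5326 and 1208 in sensitive tumours 1 to 4. The first 3 sensitive tumours were above every resistant one, and sensitive tumour 4 lay near the bottom of the resistant values. Resistant over sensitive, its log2 fold change was -1.31 ± 0.52 (SE, limma, adjusted p = 0.173, n = 4 each). Without sensitive tumour 4 it was -1.85 ± 0.29 (limma, adjusted p = 0.00184), with means of 1601 ± 671 in resistant tumours (SD, n = 4) and 5471 ± 828 in sensitive tumours 1 to 3 (SD, n = 3).

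Lgr4 and Lgr6, the other R-spondin receptors, did not pass with or without that library. Lgr4, the most widely expressed of the family, had 2418, 4619, 3658 and 1517 normalized counts in resistant tumours, against 3688, 3774, 5678 and 2571 in sensitive tumours. Lgr6, a marker of stem cells above the bulge, had 838, 461, 919 and 1059.8 in resistant tumours, against 1647, 1003, 638 and 1045 in sensitive tumours. The groups overlapped widely for both genes. With all 8 tumours the log2 fold changes were -0.43 ± 0.36 for Lgr4 (limma, adjusted p = 0.455) and -0.39 ± 0.34 for Lgr6 (limma, adjusted p = 0.463). Without sensitive tumour 4 they were -0.61 ± 0.36 for Lgr4 (95% interval -1.43 to 0.21) and -0.38 ± 0.36 for Lgr6 (-1.21 to 0.45), so a 2-fold lower level and an equal level both lay inside each interval.

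Among the transcription factors, Tbx1, which keeps bulge stem cells able to renew, gave 257, 519, 803 and 409 normalized counts in resistant tumours, against 1814, 1677, 1247 and 544 in sensitive tumours. All resistant tumours were below sensitive tumours 1 to 3. Its log2 fold change was -1.39 ± 0.44 over the 8 tumours (limma, adjusted p = 0.146) and -1.77 ± 0.35 without sensitive tumour 4 (limma, adjusted p = 0.00471).

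Sox9, needed to form and maintain the bulge, gave 2706, 1522, 3448 and 2374 normalized counts in resistant tumours, against 3713, 5571, 6185 and 2455 in sensitive tumours. Runx1, which promotes activation of follicle stem cells, gave 4637, 2061, 3336 and 3479 in resistant tumours, against 4968, 6597, 8366 and 2073 in sensitive tumours. For both genes the resistant tumours lay below sensitive tumours 1 to 3, by a narrow margin between the nearest libraries. Sox9 had a log2 fold change of -0.80 ± 0.34 over the 8 tumours (limma, adjusted p = 0.186) and -1.06 ± 0.29 without sensitive tumour 4 (limma, adjusted p = 0.0184). Runx1 had -0.59 ± 0.43 (limma, adjusted p = 0.385) and -1.001 ± 0.28 (limma, adjusted p = 0.0221).

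Nfatc1, which holds bulge stem cells at rest, was spread widely among resistant tumours, at 177, 1355, 335 and 459.8 normalized counts, against 1600.0, 1689.8, 1154 and 375 in sensitive tumours. Resistant tumour 2 reached the level of the sensitive ones, so the groups overlapped with or without sensitive tumour 4. Over the 8 tumours its log2 fold change was -1.25 ± 0.66 (limma, adjusted p = 0.256) and -1.73 ± 0.57 without sensitive tumour 4 (limma, adjusted p = 0.0409). With edgeR on the recovered reads of the same 7 tumours it was -1.36 and did not pass (adjusted p = 0.0962).

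Lhx2, which keeps bulge cells in an undifferentiated state, showed 1714, 1157, 2399.5 and 2601 normalized counts in resistant tumours, against 2444, 3204, 2852 and 1866 in sensitive tumours. The groups overlapped, and neither the log2 fold change of -0.44 ± 0.28 over the 8 tumours (limma, adjusted p = 0.333) nor that of -0.59 ± 0.27 without sensitive tumour 4 (limma, adjusted p = 0.118) passed. Cd34 showed 568, 395, 516 and 662 in resistant tumours, against 915, 870.3, 681 and 386 in sensitive tumours. Sensitive tumour 4 had the lowest Cd34 of all 8 tumours, and the other 3 sensitive tumours had the highest. Its log2 fold change was -0.36 ± 0.29 over the 8 tumours (limma, adjusted p = 0.433) and -0.63 ± 0.20 without sensitive tumour 4 (limma, adjusted p = 0.0367).

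Edar was read at low depth, from 6 to 102 reads per tumour. Its normalized counts were 12.2, 8.15, 36.5 and 71.2 in resistant tumours, against 17.3, 8.48, 11.6 and 41.6 in sensitive tumours. Both groups held high and low tumours, with a log2 fold change of 0.45 ± 0.74 over the 8 tumours (limma, adjusted p = 0.702) and 0.88 ± 0.70 without sensitive tumour 4 (limma, adjusted p = 0.343). It is the only one of the 10 with a positive fold change in either fit.

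**Figure D1:**
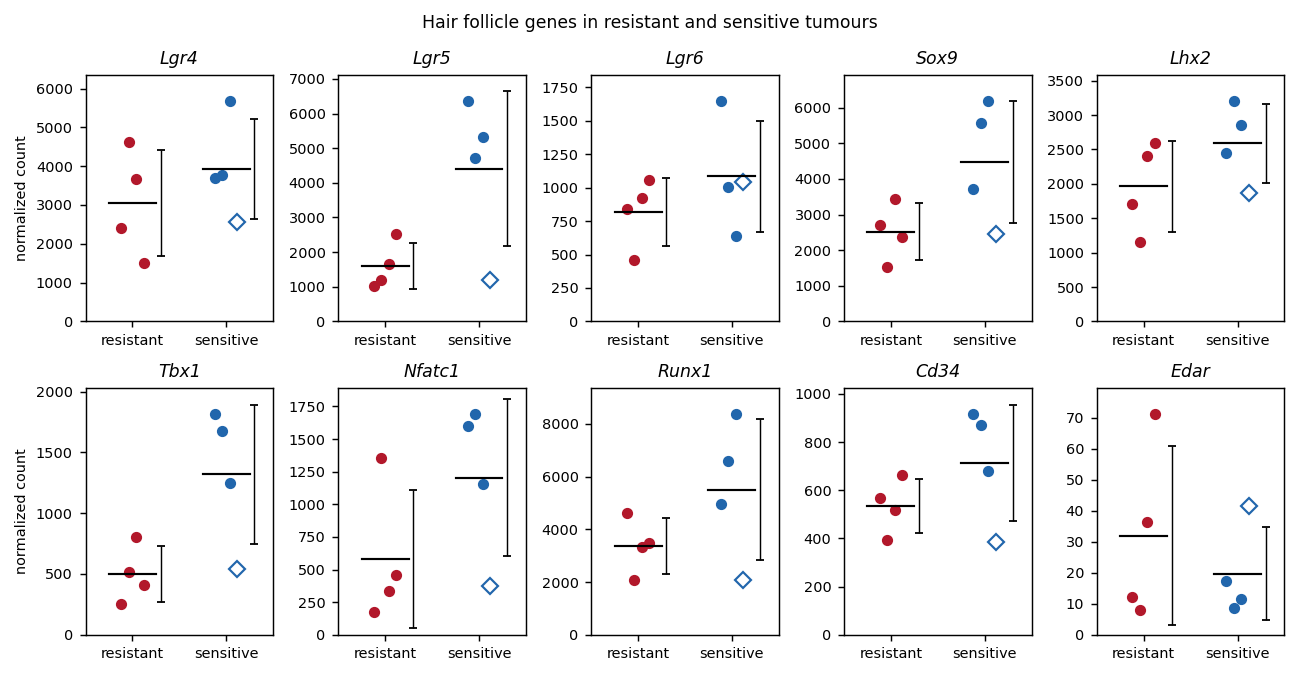
Normalized count (vertical axes, linear from 0) of the 10 genes in resistant tumours (left, red) and sensitive tumours (right, blue). Each point is a library, horizontal lines are means over 4 libraries, bars beside the points are 1 SD, and the open diamond is sensitive tumour 4, which lies within the range of the resistant tumours for 9 of 10 genes.

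The same dependence on sensitive tumour 4 held across all genes. Of 15076 genes tested over the 8 tumours, 0.113% passed in either direction, and 0 of the 10 did. At an unadjusted p below 0.05 the count was 3 of the 10 (Lgr5, Sox9, Tbx1), beside 25.1% of all genes tested. The groups did not overlap for 7.9% of all genes and for 0 of the 10. With edgeR 0 of the 10 passed as well (3 at an unadjusted p below 0.05). With DESeq2 2 passed, Lgr5 at -1.48 (adjusted p = 0.0343) and Tbx1 at -1.43 (adjusted p = 0.0251), beside 1638 of the 15076 genes by DESeq2. Without sensitive tumour 4, 19.4% of 15479 genes passed as lower and 20.6% as higher, beside 6 and 0 of the 10. Lgr5, Sox9, Tbx1, Cd34 and Runx1 then did not overlap between the groups, all 5 lower, beside 23.3% of all genes lower without overlap. The median log2 fold change was -0.51 over the 10 genes and 0.03 over all genes with 8 tumours, and -0.82 and 0.02 without sensitive tumour 4. When a term for Y-linked reads was added over the 8 tumours, a fit in which resistant tumours are in effect set against sensitive tumour 4, 0 of the 10 passed in limma and 0 had an unadjusted p below 0.05. In that fit 6 of the 10 had positive log2 fold changes: Runx1 (0.65 ± 0.41), Cd34 (0.45 ± 0.30), Lgr5 (0.32 ± 0.43), Nfatc1 (0.22 ± 0.84), Lgr4 (0.13 ± 0.53) and Lhx2 (0.01 ± 0.40). Those of Edar (-0.83 ± 1.03), Lgr6 (-0.42 ± 0.53), Tbx1 (-0.25 ± 0.51) and Sox9 (-0.03 ± 0.42) were negative. Runx1, Cd34, Lgr5 and Nfatc1 thus had the opposite sign to their calls without sensitive tumour 4.

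Marker sums of the cell types did not all differ in the same way. Keratinocyte and melanocyte sums were lower in resistant tumours than in sensitive tumours 1 to 3, and neutrophil and dermal papilla sums were higher. Endothelial, leukocyte, macrophage, fibroblast and mast cell sums overlapped between these groups. The summed level of the keratinocyte markers was 2299 to 5034 RPM (reads per 1000000 reads at genes of a library) in resistant tumours and 10289 to 13690 in sensitive tumours 1 to 3, with 4735 in sensitive tumour 4, and 5 of the 6 passed as lower without that tumour. The 10 follicle genes summed to 936 to 1198 RPM in resistant tumours, to 2121 to 2393 in sensitive tumours 1 to 3 and to 875 in sensitive tumour 4. Endothelial markers, all 8 detected and relevant to Cd34, summed to 138 to 306 in resistant tumours and to 144 to 157 in sensitive tumours 1 to 3, with 191 in sensitive tumour 4 and 4 of 8 passing as higher in resistant tumours without sensitive tumour 4. Leukocyte markers summed to 177 to 651 in resistant tumours and to 130 to 294 in sensitive tumours 1 to 3, with 532 in sensitive tumour 4. Neutrophil markers were further apart, at 424 to 642 RPM in resistant tumours and 48.8 to 84.1 in sensitive tumours 1 to 3, with 1139 in sensitive tumour 4, and 5 of 5 tested passed as higher without that tumour. Dermal papilla markers, of which Hhip is also a Hedgehog target, summed to 139.8 to 604 in resistant tumours. In sensitive tumours 1 to 3 they summed to 34.0 to 55.8, with 249.8 in sensitive tumour 4. Only 2 of 5 tested passed as higher in resistant tumours without that tumour. Wif1 and Hhip made up most of the sum in resistant tumours, reaching 495 and 119 RPM, so the sum rests mainly on these genes. Melanocyte markers summed to 11.9 to 15.6 in resistant tumours and to 22.4 to 25.5 in sensitive tumours 1 to 3, with 11.7 in sensitive tumour 4. In the same order, macrophage markers summed to 180 to 1118, 416 to 656 and 330. Fibroblast markers summed to 4852 to 7780, 4163 to 9202 and 6405, and mast cell markers to 8.67 to 33.0, 9.26 to 10.5 and 10.5. The part of these cell types in the follicle gene differences was not tested. In bulk tissue fewer cells of a type and less RNA per cell cannot be told apart.

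Within the resistant group the genes did not rank the tumours alike. Resistant tumour 2 was lowest for 6 of the 10 genes (Lgr6, Sox9, Lhx2, Cd34, Runx1, Edar) yet highest for Lgr4 and Nfatc1. Resistant tumour 4 was highest for 5 (Lgr5, Lgr6, Lhx2, Cd34, Edar) and lowest for Lgr4. Sensitive tumour 4 was lowest of its group for 8 genes and highest for Edar.

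Other genes of the follicle and of the pathways around these members were counted in lists. With all 8 tumours no gene of any of these lists passed by limma or edgeR. At an unadjusted p below 0.05 limma counted 2 of 17 bulge and hair germ genes, 1 of 7 of the R-spondin and Lgr module, 3 of 9 of the ectodysplasin pathway, 4 of 17 relatives and partners of the transcription factors and 5 of 5 Hedgehog targets, to be read beside the 25.1% of all genes. At the same threshold edgeR counted 1 of the 5 Hedgehog targets and DESeq2 counted 3, so that count depended on the tool. At an adjusted p below 0.05 DESeq2 called 1, 1, 2, 2 and 1 genes of the lists, beside 1638 of 15076 genes. Without sensitive tumour 4, 3 of 17 tested bulge and hair germ genes were higher in resistant tumours and 5 were lower, beside 20.6% and 19.4% of all genes. Krt15, the classical bulge keratin, fell by 3.45 ± 0.53 on the log2 scale (limma, adjusted p = 0.0016), and Postn, Dkk3, Sfrp1 and Nfib also fell. Over the 8 tumours Krt15 was at -3.09 ± 0.56 and did not pass (limma, adjusted p = 0.109). Tcf7l1, a repressor that keeps stem cells undifferentiated, rose by 1.05 ± 0.29 without sensitive tumour 4 (limma, adjusted p = 0.0217), against 0.81 ± 0.33 over the 8 tumours (limma, adjusted p = 0.181). Cdh3, a cadherin of the hair germ, rose by 0.56 ± 0.16 (limma, adjusted p = 0.023), against 0.40 ± 0.20 over the 8 tumours (limma, adjusted p = 0.241). The third higher gene was Fgf18, a growth factor of resting follicles, at 2.26 ± 0.68 without sensitive tumour 4. It reached the minimum for the test only through the resistant tumours, and without it the count is 2 higher of 16.

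Of 7 tested genes of the R-spondin and Lgr module, 0 were higher and 2 lower without sensitive tumour 4, beside 20.6% and 19.4% of all genes. The 2 lower ones were Axin2, a Wnt target and feedback inhibitor, at -1.77 ± 0.33 (limma, adjusted p = 0.00404), and the ligand Rspo1 at -2.30 ± 0.76 (limma, adjusted p = 0.0396). Over the 8 tumours they were at -1.29 ± 0.51 and -1.56 ± 0.92 (limma, adjusted p = 0.172 and 0.298). In the ectodysplasin pathway 1 of 9 was higher, Nfkbia, the inhibitor of NF-kB that NF-kB itself induces, at 1.91 ± 0.23 (limma, adjusted p = 0.000582), against 1.35 ± 0.50 over the 8 tumours (limma, adjusted p = 0.163). The 4 lower ones, Ikbkg, Tab2, Map3k7 and Edaradd, stand beside 19.4% of all genes lower. They encode adaptor and kinase steps between Edar and NF-kB. Traf6, another adaptor of the list, did not pass, at 1482 ± 266 normalized counts in resistant and 1516 ± 152 in all sensitive tumours (SD, n = 4 each). Edaradd, which binds Edar, changed by -0.85 ± 0.26 (limma, adjusted p = 0.0323), against -0.77 ± 0.26 over the 8 tumours (limma, adjusted p = 0.148).

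Among the relatives and partners of the transcription factors, 20 were tested without sensitive tumour 4, against 17 with all 8 tumours. Lhx8 and Sox10 reached the minimum only through 1 group, the resistant tumours for Lhx8 and the sensitive ones for Sox10. Of the other 18, 1 was higher (Nfatc4) and 3 lower (Ldb1, Sox21, Tbx3), under the share of all genes in each direction. Ldb1, the cofactor through which Lhx2 acts, changed by -0.97 ± 0.16 (limma, adjusted p = 0.0021), against -0.74 ± 0.24 over the 8 tumours (limma, adjusted p = 0.147). All 5 Hedgehog targets were higher in resistant tumours without sensitive tumour 4, by 1.98 (Gli1) to 4.31 (Hhip) on the log2 scale, while 6 of the 10 follicle genes were lower. Over the 8 tumours their log2 fold changes were 1.53 (Gli1) to 3.19 (Hhip).

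In ASZ001 cells, CCG-1423 lowered Lgr6, Tbx1 and Lgr4 by more than 2-fold and raised Cd34, which was close to 0 in vehicle. Sox9 and Runx1 fell less, and Lhx2 and Nfatc1 did not pass. Lgr5 and Edar were too low to be tested. Most genes of the line passed with CCG-1423: 85.3% of 12775 tested genes passed in either direction, 42.6% as lower and 42.8% as higher. Of the 8 tested follicle genes 6 passed, 5 of them lower, and 4 changed at least 2-fold, beside 26.9% of all tested genes. Among those 8, Cd34 reached the minimum for the test only through the CCG-1423 libraries and Lgr6 only through the vehicle and vismodegib libraries, so these had to differ and their values are given with no p. Of the other 6, 4 passed, all lower, and 2 changed at least 2-fold.

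RefSeq gives promoter windows, 250 bases before to 50 after the start of transcription, for 7 of the 10 genes in build GRCm38.p6. Lgr5, Sox9 and Nfatc1 were not matched. The windows of Lgr4, Lgr6 and Tbx1, the genes that CCG-1423 lowered by more than 2-fold, and of Cd34, which it raised, are shown because these had the largest fold changes among the 8 tested genes. They were searched on both strands for CCACCCA (the core of the Gli site), TGTGGT (Runx), GGAAAA (NFAT), ACAAAG (Sox and Tcf), CTTTGA (Tcf) and GGAATG (Tead), and for the CArG box, the sequence that SRF binds. Capitals mark every match. Tbx1 has another annotated start, with a window at chr16:18590622-18590921 on the minus strand that holds no match. The windows lie at chr2:109917397-109917696 on the plus strand (Lgr4), chr1:135105227-135105526 on the minus strand (Lgr6), chr16:18588850-18589149 on the minus strand (Tbx1) and chr1:194938571-194938870 on the plus strand (Cd34).
Lgr4: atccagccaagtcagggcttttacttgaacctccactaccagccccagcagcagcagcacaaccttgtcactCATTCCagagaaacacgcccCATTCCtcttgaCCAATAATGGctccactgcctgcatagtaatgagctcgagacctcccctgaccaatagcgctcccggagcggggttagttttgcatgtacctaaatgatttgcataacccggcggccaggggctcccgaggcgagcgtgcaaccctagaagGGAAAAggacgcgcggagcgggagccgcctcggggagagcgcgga
Lgr6: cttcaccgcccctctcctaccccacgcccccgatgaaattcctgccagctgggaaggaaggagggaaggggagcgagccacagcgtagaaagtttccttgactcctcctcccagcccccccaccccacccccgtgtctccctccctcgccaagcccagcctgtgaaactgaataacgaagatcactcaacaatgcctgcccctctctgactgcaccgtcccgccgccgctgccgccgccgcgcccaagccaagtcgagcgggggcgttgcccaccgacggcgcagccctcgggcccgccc
Tbx1: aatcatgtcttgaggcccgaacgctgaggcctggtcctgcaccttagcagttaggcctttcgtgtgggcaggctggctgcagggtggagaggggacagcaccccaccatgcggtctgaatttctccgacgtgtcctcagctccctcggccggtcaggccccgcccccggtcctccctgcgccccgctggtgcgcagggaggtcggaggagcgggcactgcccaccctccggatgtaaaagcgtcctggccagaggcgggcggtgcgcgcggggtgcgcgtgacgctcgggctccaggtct
Cd34: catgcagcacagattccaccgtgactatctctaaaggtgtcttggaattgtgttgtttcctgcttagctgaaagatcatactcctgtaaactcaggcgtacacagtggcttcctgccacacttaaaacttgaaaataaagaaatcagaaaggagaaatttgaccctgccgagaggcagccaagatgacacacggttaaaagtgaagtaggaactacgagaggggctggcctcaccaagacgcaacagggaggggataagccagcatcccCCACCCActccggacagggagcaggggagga

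The Lgr4 window holds a CArG box whose first base is at position -146 from the start, a motif found in 1.63% of 32851 mouse windows of this length. It also holds 2 Tead matches on the minus strand, read as CATTCC, at -178 and -158 (14.7% of windows have a match), and an NFAT match at 6 (23.4%). The Cd34 window has a Gli core match at 20, which 9.3% of windows have. The Lgr6 window and both Tbx1 windows hold none of the 7 motifs. Over the 7 genes with windows, a Runx match was in 1 (Runx1 itself, 2 matches; 16.8% of all windows), a Tcf match in 1 (Edar; 16.0%), a Gli core match in 2 (Lhx2, Cd34) and a Sox and Tcf match in 0 (18.7% of all windows). A Tead match was in 3 of these 7 genes (Lgr4, Runx1, Edar) and an NFAT match in 3 (Lgr4, Lhx2, Edar). The CArG box was in 1 (Lgr4). No match overlapped another. A match is a description of the letters and no evidence of binding, and the CArG and Tead motifs were added after the responses to CCG-1423 had been seen.

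Lgr6 responded most. It had 7.82, 6.92 and 4.64 normalized counts in CCG-1423 libraries 1 to 3, against 203, 241 and 239.9 in vehicle libraries 1 to 3. These rest on 7, 8 and 5 reads with CCG-1423 and on 249, 226 and 212 with vehicle, so every treated library was far below every vehicle library. The log2 fold change was -4.96. Pooled over the libraries, the RPM of Lgr6 was 0.029 times that with vehicle (exact 95% interval 0.0176 to 0.0452, counting error only).

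Tbx1 had 21.2, 22.5 and 21.3 normalized counts with CCG-1423, against 235, 239 and 279.6 with vehicle. The treated libraries differed from each other by less than 2 counts, and its log2 fold change was -3.47 ± 0.11 (limma, adjusted p = 1.1e-13). Lgr4, the most abundant of the 3 receptors by reads in the line, had 8447, 8813 and 8474 with CCG-1423, against 28048, 27946 and 28248 with vehicle. The log2 fold change was -1.71 ± 0.03 (limma, adjusted p = 6.4e-17), a 3.27-fold lower level in treated cells that was alike in all 3 libraries.

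Sox9 had 11515, 12805 and 12948 normalized counts with CCG-1423, against 17005, 16204 and 17016 with vehicle. Runx1 had 6479, 6236 and 6303 with CCG-1423, against 7467, 7246 and 7263 with vehicle. Both changes were small beside those of Lgr6, Tbx1 and Lgr4, yet the groups did not overlap. The log2 fold change was -0.43 ± 0.04 for Sox9 (limma, adjusted p = 6.1e-08) and -0.21 ± 0.03 for Runx1 (limma, adjusted p = 8.8e-06).

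Nfatc1 had 904, 954 and 927 normalized counts with CCG-1423, against 1007, 949 and 1004 with vehicle, and a log2 fold change of -0.09 ± 0.05 that did not pass (limma, adjusted p = 0.0953; 95% interval -0.19 to 0.01). Lhx2 was near the limit of the data, at 39.1, 21.6 and 29.7 with CCG-1423, against 29.4, 13.8 and 15.8 with vehicle. The groups overlapped, and its log2 fold change of 0.62 ± 0.31 did not pass (limma, adjusted p = 0.0761; 95% interval -0.05 to 1.30). It passed when CCG-1423 library 2 was left out (0.84, limma, adjusted p = 0.0336) and when vehicle library 1 was left out (0.94, limma, adjusted p = 0.0134).

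Cd34 was higher with CCG-1423. It had 16, 25 and 21 reads in treated libraries (17.9, 21.6 and 19.5 normalized counts), against 1, 4 and 0 reads in vehicle libraries (0.817, 4.26 and 0). All treated libraries were above all vehicle libraries, and the gene entered the test only through the treated ones. Its log2 fold change was 3.28, and its pooled RPM was 12.4 times that with vehicle (exact 95% interval 5.02 to 39.4, counting error only). The 8 endothelial markers summed to 8.43 to 10.4 RPM with CCG-1423 and to 25.6 to 25.8 with vehicle, with Kdr, Tie1 and Cldn5 at 0 in both groups. The leukocyte markers summed to 1.19 to 1.49 with CCG-1423 and to 0.404 to 0.615 with vehicle.

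Lgr5 gave 0, 4 and 0 reads with CCG-1423, against 6, 3 and 2 with vehicle, where a library at 0 allows up to 3 reads. Pooled, that is 0.363 times the vehicle level (exact 95% interval 0.0842 to 1.22), and a difference was not detectable at this depth by counting. Edar gave 4, 9 and 13 reads with CCG-1423, against 4, 1 and 1 with vehicle, or 4.32 times the vehicle level (exact 95% interval 1.74 to 12.8). Both fell below the minimum level for the test. With no minimum, Lgr5 had a log2 fold change of -1.39 (limma, adjusted p = 0.0325) and Edar of 1.69 (limma, adjusted p = 0.0254).

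**Figure D2:**
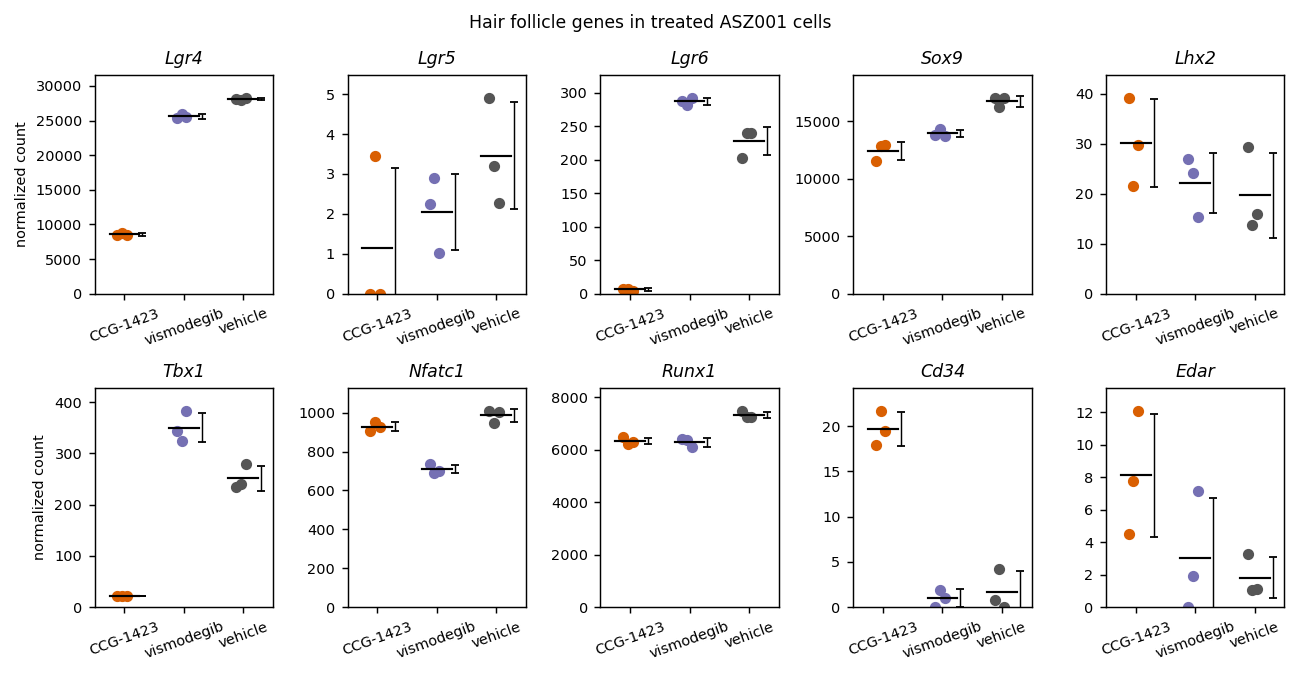
Normalized count (vertical axes, linear from 0) of the 10 genes in ASZ001 cells treated with CCG-1423 (orange), vismodegib (purple) or vehicle (grey). Points are libraries, horizontal lines are means of 3 libraries and bars beside them are 1 SD. Lgr4, Lgr6 and Tbx1 are lowest and Cd34 is highest with CCG-1423, and Lgr5, Cd34 and Edar rest on at most 25 reads per library.

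Around these members, CCG-1423 lowered 11 and raised 2 of 16 tested bulge and hair germ genes, beside 42.6% and 42.8% of all genes. Krt15 changed by -6.27 ± 0.08 on the log2 scale (limma, adjusted p = 3.9e-18), with 31.4 ± 3.34 normalized counts with CCG-1423 and 2491 ± 197 with vehicle (SD, n = 3 each). Gas1, a Hedgehog coreceptor at the cell surface, changed by -3.88 ± 0.05 (limma, adjusted p = 5.5e-18). Col17a1, a collagen that anchors bulge cells, changed by -1.57 ± 0.05 and Tcf7l1 by -1.01 ± 0.04. The 2 raised genes were Lrig1, a marker of stem cells above the bulge, at 0.97 ± 0.05, and Postn at 0.37 ± 0.12. Keratinocyte markers, 5 of 6 lower and Epcam higher, summed to 7357 to 7579 RPM with CCG-1423 and to 31968 to 32485 with vehicle. The part of this fall in the follicle gene changes was not tested.

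In the R-spondin module 3 of 6 tested genes were higher and 2 lower with CCG-1423, near the 42.8% and 42.6% of all genes. Axin2 rose by 2.34 ± 0.08 on the log2 scale (limma, adjusted p = 4.2e-13), to 1086 ± 129.95 normalized counts with CCG-1423, against 213 ± 9.17 with vehicle (SD, n = 3 each). Lrp6, the Wnt coreceptor, rose by 0.45 ± 0.04 and the ligase gene Rnf43 by 0.20 ± 0.06. The ligand Rspo1 changed by -2.08 ± 0.11 (limma, adjusted p = 3.4e-11) and Lrp5 by -0.09 ± 0.03. So Lgr4, Lgr6 and Rspo1 were lower while the Wnt target Axin2 was higher in the same libraries.

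In the ectodysplasin pathway 4 of 8 tested genes were higher and 3 lower with CCG-1423, also near those shares. Eda2r, the receptor for the other ectodysplasin isoform and also a p53 target, rose by 2.93 ± 0.19 (limma, adjusted p = 8.3e-10), and Nfkbia by 2.12 ± 0.09 (limma, adjusted p = 2.6e-12). Tab2 and Traf6 rose too, whereas Ikbkg changed by -1.11 ± 0.04, Map3k7 by -0.66 ± 0.03 and Edaradd by -0.56 ± 0.08. Of 17 tested relatives and partners of the transcription factors 11 were higher and 3 lower, beside 42.8% and 42.6% of all genes. Ldb2, an LIM-domain binding cofactor, changed by -3.30 ± 0.06 (limma, adjusted p = 4.8e-16), and Ldb1 by -0.17 ± 0.03 and Lhx1 by -0.60 ± 0.17. Runx2 rose by 0.61 ± 0.04 and Tbx3 by 0.94 ± 0.06, both while Runx1 and Tbx1 fell, and Sox21 rose by 0.83 ± 0.06 while Sox9 fell. Runx2, Tbx3 and Sox21 were picked for their relation to these members, not by smallest p.

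Vismodegib changed the follicle genes little. Sox9, Runx1, Nfatc1 and Lgr4 were lower and Tbx1 was higher than with vehicle, with no change reaching 2-fold. Of 12775 genes tested, 5.5% passed in either direction, beside 5 of the 8 tested follicle genes. Lower calls were 3.92% of all genes and 4 of the 8, and higher calls 1.58% and 1 of the 8. At least 2-fold changes made up 0.274% of all genes and 0 of the 8. The median log2 fold change was -0.13 over the 7 other than Cd34 and 0.01 over all tested genes.

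Nfatc1 had 734, 692 and 702 normalized counts with vismodegib, against 1007, 949 and 1004 with vehicle. Every treated library was below every vehicle library, and the log2 fold change was -0.48 ± 0.05 (limma, adjusted p = 1.3e-05). Sox9 had 13805, 14297 and 13726 with vismodegib, against the vehicle values above, a log2 fold change of -0.26 ± 0.04 (limma, adjusted p = 0.000974). Runx1 had 6422, 6356 and 6101 with vismodegib, a log2 fold change of -0.22 ± 0.03 against vehicle (limma, adjusted p = 0.000336). For these 3 genes the call held when any 1 library of either group was left out.

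Tbx1 had 344, 325 and 382 normalized counts with vismodegib, against 235, 239 and 279.6 with vehicle, and was the only one of the 8 to pass as higher, at 0.48 ± 0.11 (limma, adjusted p = 0.019). Lgr4 had 25358, 25957 and 25491 with vismodegib, against 28048, 27946 and 28248 with vehicle, at -0.13 ± 0.03 (limma, adjusted p = 0.00996). Neither gene overlapped between the groups, but both calls were narrow. Tbx1 lost its call without vismodegib library 1 (adjusted p = 0.0614) or 3 (0.125), or vehicle library 1 (0.108) or 2 (0.102), all by limma. Lgr4 lost its call without vismodegib library 3 (limma, adjusted p = 0.0542) or without any 1 of the vehicle libraries (0.0504 to 0.0585), and when libraries were scaled to total reads (-0.05, limma, adjusted p = 0.221).

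Lgr6 had 287, 282 and 292 normalized counts with vismodegib, against 203, 241 and 239.9 with vehicle. The groups did not overlap, which for either direction was so for 29.9% of all genes and for 6 of the 8, yet the log2 fold change of 0.34 ± 0.16 did not pass (limma, adjusted p = 0.285). With edgeR it passed (0.34, adjusted p = 0.0318), as it did in limma when the CCG-1423 libraries were left out of the fit (adjusted p = 0.00868). Lhx2 had 26.8, 24.2 and 15.3 normalized counts with vismodegib and did not pass (0.20 ± 0.31, 95% interval -0.47 to 0.87). Cd34 had 0, 2 and 1 reads with vismodegib, Lgr5 had 2, 3 and 1, and Edar had 0, 2 and 7, all overlapping vehicle.

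Among the lists, vismodegib lowered 4 of 16 tested bulge and hair germ genes (Fst, Nfib, Tcf7l2, Foxc1, by 0.19 to 0.31 on the log2 scale) and raised 0. The shares of all genes to set beside these list counts were 3.92% lower, 1.58% higher and 5.5% in either direction. In the R-spondin module 1 of 6 passed, Znrf3 at -0.23 ± 0.04 (limma, adjusted p = 0.00473), and in the ectodysplasin pathway 0 of 8, by edgeR and DESeq2 too, with 1 at an unadjusted p below 0.05 by each tool (18.5% of all genes by limma). Of 17 relatives and partners Sox21 was higher, at 0.24 ± 0.06, and Ldb2 (-0.37 ± 0.06) and Cbfb (-0.13 ± 0.03) were lower. Cbfb is the partner of Runx1 on DNA. Gli1, the standard readout of Hedgehog signalling, changed by -2.28 ± 0.09 with vismodegib (limma, adjusted p = 1.2e-09) and by -1.72 ± 0.09 with CCG-1423 (limma, adjusted p = 5.9e-11). The other tested Hedgehog targets did not move alike: Ptch1 rose by 0.85 ± 0.09 with CCG-1423 (limma, adjusted p = 2.3e-07) and was at -0.20 ± 0.09 with vismodegib (limma, adjusted p = 0.248), and Gli2 changed by -0.18 ± 0.06 with CCG-1423 (limma, adjusted p = 0.0138) and by -0.23 ± 0.06 with vismodegib (limma, adjusted p = 0.0382).

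**Figure D3:**
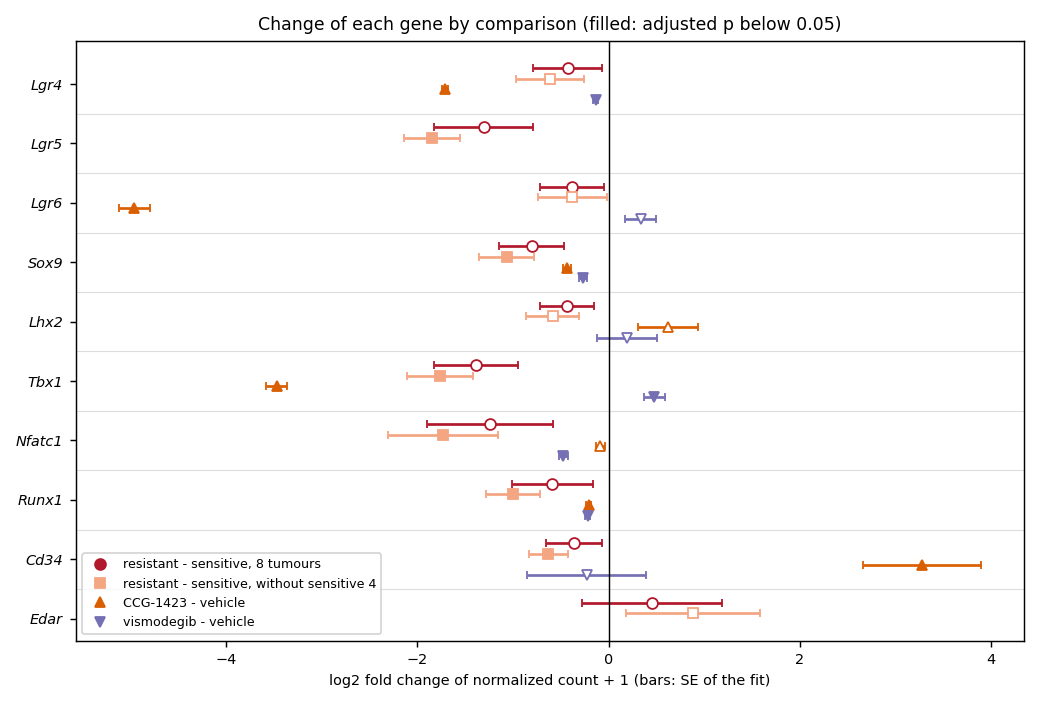
Log2 fold change on the normalized count + 1 scale (horizontal axis) of each gene in resistant over sensitive tumours with 8 tumours (circles) and without sensitive tumour 4 (squares), and in cells with CCG-1423 (upward triangles) and vismodegib (downward triangles) over vehicle. Bars are the SE of the fit, filled symbols passed at an adjusted p below 0.05, Cd34 and Lgr6 entered the CCG-1423 test through 1 group only, and Lgr5 and Edar were not tested in the cells. Lgr6, Tbx1 and Lgr4 lie farthest left with CCG-1423, at -4.96, -3.47 and -1.71.

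The compounds were also set against each other. Their doses are not given, so they cannot be said to be matched. Of the 8 tested genes, 4 were lower and 2 higher with CCG-1423 than with vismodegib, beside 42.4% of all tested genes in each direction. Lgr6 and Cd34, which reached the minimum through 1 side only, differed by -5.30 and 3.51 on the log2 scale and are given with no p. Of the other 6, 3 were lower and 1 higher. Tbx1 differed by -3.95 ± 0.11 (limma, adjusted p = 2.4e-14) and Lgr4 by -1.58 ± 0.03 (limma, adjusted p = 1.6e-16). Nfatc1 was higher with CCG-1423, by 0.39 ± 0.05 (limma, adjusted p = 1.3e-06). Sox9 was lower by a small margin (-0.17 ± 0.04, limma, adjusted p = 0.00122). Runx1 did not pass, with a difference of 0.01 ± 0.03 and a 95% interval of -0.05 to 0.07, and Lhx2 did not pass (0.43 ± 0.31, 95% interval -0.24 to 1.10). Both compounds were compared with the same vehicle libraries.

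The line and the tumours differed most in which of these genes they expressed. The tables were normalized separately, so the levels below are in RPM, and nothing was tested between tables. In vehicle-treated cells 6 of the 10 genes lay below every tumour, 1 (Lgr4) lay above every tumour and 3 (Sox9, Nfatc1, Runx1) overlapped the tumours. Lgr5 stood at 0.0621 to 0.136 RPM in vehicle-treated cells and at 66.5 to 497 in the tumours. Lhx2 stood at 0.381 to 0.818 in vehicle-treated cells and at 81.6 to 247 in the tumours, and Cd34 at 0 to 0.117 and 26.9 to 71.5. Cd34 with CCG-1423, at 0.5 to 0.609, thus remained below every tumour.

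Mean RPM (± SD, n = 3 per cell group and 4 per tumour group) ordered the groups differently from gene to gene. Lgr4 had 242 ± 6.09 with CCG-1423, 748 ± 6.33 with vismodegib and 775 ± 5.77 with vehicle, and 212 ± 97.6 in resistant and 295 ± 99.7 in sensitive tumours. The vehicle and vismodegib libraries were highest, and the CCG-1423 libraries fell among the tumours. Sox9 had 351 ± 26.1 with CCG-1423, 407 ± 7.9 with vismodegib and 462 ± 14.4 with vehicle, and 174 ± 54.8 in resistant and 338 ± 134 in sensitive tumours. Its sensitive tumours overlapped every cell group, and its resistant tumours lay below all of them. Runx1 had 179 ± 3.07 with CCG-1423, 184 ± 5.39 with vismodegib and 202 ± 4.84 with vehicle, and 233 ± 65.2 in resistant and 416 ± 205 in sensitive tumours. Neighbouring groups overlapped for Runx1, apart from vismodegib and vehicle.

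Lgr6 and Tbx1 shared 1 order, with sensitive tumours highest, then resistant tumours, vismodegib, vehicle and CCG-1423. Lgr6 had 0.182 ± 0.0442 RPM with CCG-1423, 8.39 ± 0.161 with vismodegib and 6.29 ± 0.545 with vehicle, and 56.8 ± 18.4 in resistant and 81.6 ± 34.0 in sensitive tumours. Tbx1 had 0.613 ± 0.0201 with CCG-1423, 10.2 ± 0.855 with vismodegib and 6.93 ± 0.64 with vehicle, and 34.7 ± 16.5 in resistant and 100.4 ± 46.5 in sensitive tumours. For both, only the tumour groups overlapped. Nfatc1 had 26.2 ± 0.863 with CCG-1423, 20.7 ± 0.733 with vismodegib and 27.2 ± 0.992 with vehicle, and 40.9 ± 37.5 in resistant and 91.8 ± 48.0 in sensitive tumours. The resistant tumours spanned every cell group, and the sensitive tumours overlapped CCG-1423 and vehicle but lay above vismodegib.

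**Figure D4:**
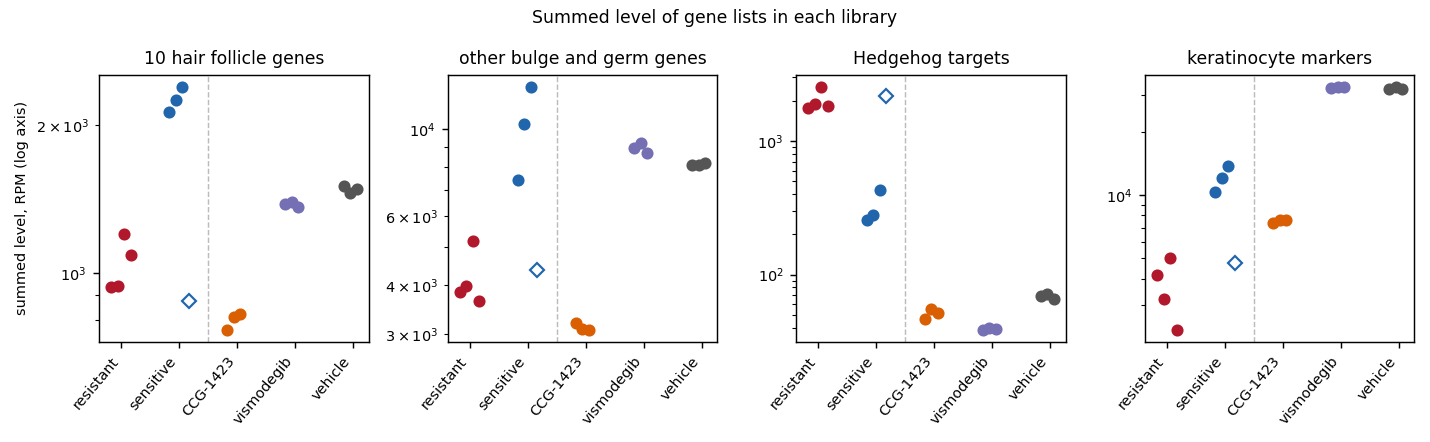
Summed RPM (vertical axes, logarithmic) of the 10 follicle genes, the 18 other bulge and hair germ genes, the 5 Hedgehog targets and the 6 keratinocyte markers in each library, tumours left and ASZ001 cells right of the dashed line. Points are libraries and the open diamond is sensitive tumour 4. The 10 follicle genes sum to 767 to 824 with CCG-1423 and to 1454 to 1502 with vehicle.

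For each of the 8 genes tested in both tables, the pair of genes with the nearest pattern over the 17 libraries was found among 10113 candidates, by the root mean square difference of log2 values centred within each table. Lgr4 was nearest to Mettl7a1 (0.211) and Leprel4 (0.215), where its own root mean square deviation was 0.684. Sox9 was nearest to Plekha7 (0.148) and Ptprf (0.173), against 0.45 for itself, and Runx1 to Pawr (0.171) and Ptpn3 (0.193), against 0.474. Tbx1 was nearest to Gpr153 (0.39) and B3gnt8 (0.408), against 1.44, and Lgr6 to Ackr3 (0.51) and Clec2e (0.535), against 1.80. The match was looser for Nfatc1 with Itfg3 (0.39) and Gpr125 (0.413), against 0.807, for Cd34 with Akna (0.578) and Pde4b (0.584), against 1.30, and for Lhx2 with Xndc1 (0.304) and Cyb5r1 (0.314), against 0.452. The members themselves were not candidates.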

How the data were processed

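RNA of 8 mouse basal cell carcinomas and of 9 ASZ001 cell samples was sequenced, and the series' 8 exome samples were not analysed here. The deposited tables hold signal, in normalized read counts per gene, which the authors made within each table by dividing counts by 1 size factor per library. Per the submitters' processing notes TopHat, DESeq and build mm9 were used, without a stated role or version. No source used here names the gene counter, its annotation or its strand setting. Each library's step gave back whole reads within 0.01 for 100% of values.

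Differences were tested on log2(normalized count + 1) with limma 3.58.1 under R 4.3.3, so fold changes understate changes of low genes, with a variance trend and 2-sided p-values adjusted by Benjamini-Hochberg over all genes tested (threshold 0.05). A gene was tested if it reached 10 in at least 4 tumour or 3 cell libraries. With a tumour left out, the smaller group's size was used. The cell fit held all 9 libraries, which share 1 estimate of the spread. edgeR 4.0.16 and DESeq2 1.42.0 were run on the recovered reads. Intervals of read ratios are exact conditional binomial and cover counting error only. Other alternatives were pseudocounts of 0.5 and 5, no minimum, total-read scaling, a replicate block, a Y-linked term and leaving out each library. The steps were tested on simulated data. For resistant against sensitive tumours with none left out, 5.97% of simulated 2-fold changes and 48.5% of 4-fold changes were recovered. Without sensitive tumour 4 these shares were 10.4% and 80.3%. Most 2-fold changes were thus missed in both tumour fits, so not passing there is no evidence of an equal level. Against vehicle the shares were 85.1% and 98.5% with CCG-1423, and 94% and 98.5% with vismodegib.

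The 10 members, the gene lists and the motifs were chosen with earlier results of these data known. Named list genes are up to 4 of smallest p per list and comparison among those passing, and any needed for a count of 5 or fewer. Tcf7l1 was also named in the tumours, and Runx2, Tbx3 and Sox21 beside the members they are related to. Nearest patterns were sought among genes with a mean of at least 50 in each table. Replicate numbers were not used to pair the samples in the main fits. Chi-square per degree of freedom between libraries of 1 group was 12.8 to 173 in tumours and 1.81 to 38.9 in cells. Counting error alone gives about 1, so libraries differed by more than that. These values cannot show whether 2 libraries came from the same RNA or culture.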

Additional observations from a re-analysis of the deposited data

How the results depend on the processing

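Counts of calls in the tumours depended on 1 library. The main count of genes passing for resistant against sensitive tumours, 17, became 0 with a pseudocount of 0.5, total-read scaling, edgeR, a replicate block or a Y-linked term, and 1638 with DESeq2, which called 2 of the 10 follicle genes where limma called 0. Leaving out each tumour in turn gave 0 to 6184 genes and 0 to 6 follicle genes, the high values being those without sensitive tumour 4. Without that tumour, alternatives chosen after seeing the data gave 6086 genes and 5 follicle genes with edgeR (Nfatc1 lost), 6802 and 6 with DESeq2, 6271 and 6 with total-read scaling, 6160 and 6 with a pseudocount of 0.5, and 5798 and 6 with a replicate block. Total-read scaling there gave a median log2 fold change over all genes of -0.13, against 0.02, and a split of 2511 higher and 3760 lower, against 3183 and 3001. The 6 follicle genes called stayed lower.

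For vismodegib against vehicle, 703 genes passed (202 higher, 501 lower), 3229 with total-read scaling (2923 higher, 306 lower), and 1721 without the CCG-1423 libraries in the fit. The 45S ribosomal RNA gene Rn45s took 1.39% to 1.58% of reads with vismodegib and 5.81% to 6.70% with vehicle, and total-read scaling without Rn45s gave 667 genes. Leaving out each library gave 325 to 498 genes and 3 to 5 follicle genes, with Lgr4 and Tbx1 the calls lost. For CCG-1423 against vehicle the ranges were 10619 to 10947 genes and 6 to 7 follicle genes, and against vismodegib 10631 to 10947 genes and 6 follicle genes.

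Deviations of same-numbered samples from their group means correlated at -0.15 to 0.12 in tumours and -0.04 to 0.04 in cells. A weak shared effect could leave such values, so they cannot show whether the numbers pair the samples. A replicate block left 7 follicle genes called for CCG-1423 (Lhx2 added, adjusted p = 0.039) and 5 for vismodegib. No fold change called with all libraries of its comparison turned its sign in an alternative, but of the 6 follicle genes called without sensitive tumour 4, Lgr5, Runx1, Cd34 and Nfatc1 had positive fold changes with the Y-linked term. Depth limits Lgr5, Cd34 and Edar in the cells, at 0 to 25 reads per library.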
